A study of Homo sapiens with 23 samples.

Results

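OPRK1, DDC, CCN3, BCHE, KCNMA1 and CAMK2N1 were followed as a set of 6 genes known to be repressed by androgen signalling in prostate cells, out of 19837 genes with a count in each of the 3 count tables of the series. They were chosen by name for that known behaviour, and their levels were read in all 9 groups of libraries. Of the 6, 5 were higher in LNCaP cells under enzalutamide with or without an inhibitor of ONECUT2, while KCNMA1 was lower there, against its label as an androgen-repressed gene; of all genes tested, 23.2% were called higher with the inhibitor and 34.7% without it. With ONECUT2 raised or targeted by a hairpin, some of the 6 genes were called higher and others lower. Of all genes tested, 54.1% to 61.1% were called in either direction in these comparisons. The exception was LNCaP overexpression against the shCon libraries. There 5 were called lower and 0 higher, where 30.8% and 33.2% of all genes tested were. The shCon libraries are the reference of the hairpin, and they differed from the control libraries themselves. In shCon 3 of the 6 genes were called higher and 2 lower than in control, where 28.3% and 28.1% of all genes tested were.

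Androgen binds a nuclear receptor that activates one set of prostate genes, such as KLK3, which encodes prostate-specific antigen, and lowers another set. Blocking the receptor therefore lowers the induced genes and relieves the repressed ones. The repressed genes followed here have unlike products. OPRK1 encodes the kappa opioid receptor, a membrane receptor for dynorphin peptides. DDC encodes aromatic L-amino acid decarboxylase, which makes dopamine and serotonin. BCHE encodes butyrylcholinesterase, a secreted esterase that hydrolyses choline esters. CCN3, formerly NOV, encodes a secreted matricellular protein. KCNMA1 encodes the pore-forming subunit of the BK potassium channel, which opens with calcium and membrane depolarization. CAMK2N1 encodes an inhibitor of the calcium/calmodulin-dependent kinase CaMKII.

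RNA sequencing covered 23 libraries of 2 androgen-sensitive prostate cancer cell lines, in 9 groups. LNCaP cells, grown in RPMI-1640 with serum, were labelled as overexpressing ONECUT2 (abbreviated OC2, a transcription factor of the CUT-homeodomain class) in 2 libraries, as control in 2, as shOC2, carrying a short hairpin against OC2, in 2, and as shCon in 2. LAPC4 cells, grown in IMDM with serum and 1 nM of the synthetic androgen R1881 in every group, were labelled as overexpressing OC2 in 3 libraries and as vector in 3. In the drug experiment LNCaP cells received, for 7 days, 10 µM enzalutamide, an androgen receptor antagonist, together with an OC2 inhibitor at 10 µM (the combination, 3 libraries), 10 µM enzalutamide alone (3 libraries) or vehicle (3 libraries). The labels name neither the inhibitor, the hairpin sequence nor the OC2 construct, give no clone, and do not say whether replicates came from separate cultures, so p-values measure only the spread between these libraries, which may be technical. No group received the inhibitor alone.

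In hg38 with GENCODE 29, DDC lies on chromosome 7 from 50458436 to 50565457, BCHE on chromosome 3 from 165772904 to 165837472, KCNMA1 on chromosome 10 from 76869601 to 77638369 and CAMK2N1 on chromosome 1 from 20482391 to 20486220, all on the minus strand. Exons of another gene were crossed only in DDC, by 114 bases of the antisense gene DDC-AS1, and in KCNMA1, by 419 bases of the antisense gene KCNMA1-AS1. Whether counting used the strand is not given in the sources used here, but no library had more than 2 counts for DDC-AS1 or more than 9 for KCNMA1-AS1.

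RefSeq promoter windows of 300 bases (GRCh38.p14) were found for 3 of the 6 genes, in 5 windows: 1 for BCHE and 2 each for DDC and KCNMA1. The window farthest upstream of each gene is printed, to set the promoter of KCNMA1, which was lower with the drugs, beside those of DDC and BCHE, which were higher. Sequences run 5′ to 3′ on the minus strand, and capitals mark CG dinucleotides. BCHE is chr3:165837374-165837673, DDC is chr7:50565356-50565655 and KCNMA1 is chr10:77637759-77638058.
BCHE: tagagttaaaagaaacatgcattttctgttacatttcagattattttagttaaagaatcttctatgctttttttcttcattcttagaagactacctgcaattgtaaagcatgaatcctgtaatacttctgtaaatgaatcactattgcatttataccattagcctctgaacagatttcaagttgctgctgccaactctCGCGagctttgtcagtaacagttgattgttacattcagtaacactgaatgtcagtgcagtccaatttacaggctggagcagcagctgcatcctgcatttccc
DDC: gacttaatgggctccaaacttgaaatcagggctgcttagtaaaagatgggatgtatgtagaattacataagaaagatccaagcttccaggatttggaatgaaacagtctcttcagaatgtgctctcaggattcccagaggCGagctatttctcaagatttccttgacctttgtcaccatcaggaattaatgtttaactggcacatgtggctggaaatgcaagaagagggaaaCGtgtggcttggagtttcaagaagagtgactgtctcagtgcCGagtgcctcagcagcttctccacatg
KCNMA1: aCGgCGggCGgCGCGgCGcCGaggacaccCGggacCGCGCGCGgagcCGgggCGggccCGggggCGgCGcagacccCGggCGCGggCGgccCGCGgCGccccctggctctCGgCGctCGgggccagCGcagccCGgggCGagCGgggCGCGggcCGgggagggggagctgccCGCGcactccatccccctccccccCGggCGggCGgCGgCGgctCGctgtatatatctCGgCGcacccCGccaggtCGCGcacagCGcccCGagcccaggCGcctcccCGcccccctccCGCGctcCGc
The KCNMA1 window had a GC content of 85.7% and 54 CG dinucleotides, at the 99.5th percentile of 35116 RefSeq windows, whose medians were 58.7% GC and 14 CG dinucleotides. The DDC window had 44.3% GC and 3 CG dinucleotides, and the BCHE window 36.7% GC and 2. The other DDC window, inside the gene, had 57.3% GC and 3 CG dinucleotides, and the other KCNMA1 window 54.7% GC and 1. Both strands were searched for AGAACA, the androgen receptor half-site, and for ATTGAT and ATCGAT, core letters bound by CUT-homeodomain proteins. None of the 3 was in any of the 5 windows, and they were in 14.8%, 6.26% and 0.763% of all windows. This says only that these letters are not in these windows.

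Library totals ran from 20964025 to 30465978 counts. Levels below are CPM, counts scaled to a common library total after TMM normalization. A gene is called higher or lower where the edgeR quasi-likelihood test gave a Benjamini-Hochberg adjusted p under 0.05 over all genes tested. Luminal prostate markers (KRT8, KRT18, KLK3, HOXB13, EPCAM and FOLH1) had group means of at least 30.0 CPM in all 9 groups. The 4 blood markers summed to at most 0.92 CPM in any library. Some libraries stood apart. The enzalutamide columns hold whole counts, whereas the vehicle and combination columns beside them hold estimated counts, so enzalutamide and its counting step cannot be told apart. These columns cannot be tied to sample numbers and are called a, b and c here. Library a differed from b and c more than they did from each other (chi-square per degree of freedom 77.1 and 51.8, against 22.4). Combination replicate 2 (16.4 and 16 against 3.35) and LAPC4 vector replicate 3 (36.1 and 20.2 against 4.68) also differed most from their group. No pair of replicates was within sampling noise. The remaining loci are OPRK1, at 53225716 to 53251697 (minus strand), and CCN3, at 119416306 to 119424353 (plus strand), both on chromosome 8 of hg38.

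ONECUT2 was read in each comparison as the targeted gene. It averaged 320 ± 19.6 CPM (SD, n = 2) in LNCaP overexpressing cells and 27.6 ± 4.21 CPM (n = 2) in LNCaP control cells. In LAPC4 it averaged 898 ± 79.9 CPM in overexpressing cells and 15.5 ± 2.03 CPM in vector cells (SD, n = 3 each). It averaged 12.1 ± 0.0093 CPM in shOC2 cells and 20.8 ± 0.622 CPM in shCon cells (SD, n = 2 each), a log2 fold change of −0.77 (edgeR adjusted p = 4.84e-05). It was also lower in shCon than in control (−0.41, SE 0.11, edgeR adjusted p = 0.0127), and its response to overexpression was larger in LAPC4 than in LNCaP, by 2.34 on the log2 scale (SE 0.17, edgeR adjusted p = 1.12e-07). In the drug experiment it averaged 14.3 ± 1.45 CPM with the combination, 26.1 ± 4.97 CPM with enzalutamide and 15.9 ± 1.58 CPM with vehicle (SD, n = 3 each). It was called higher with enzalutamide than with vehicle (log2 fold change 0.71), lower with the combination than with enzalutamide (−0.86), and not called between combination and vehicle (−0.15, edgeR adjusted p = 0.44). Both calls cross the change in counting step, which cannot be told apart from enzalutamide.

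**Figure D1:**
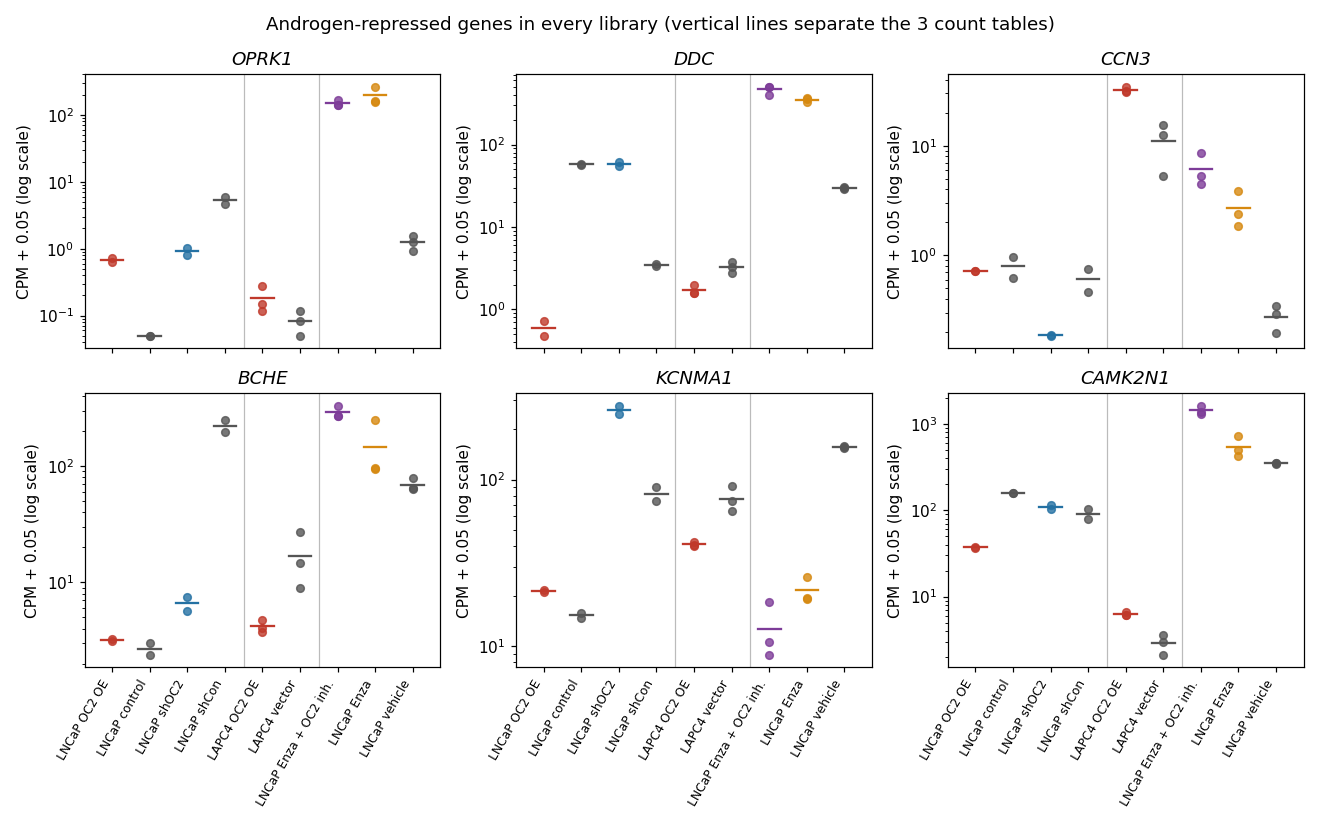
Level of each of the 6 genes in every library (points; y axis CPM plus 0.05, log scale) in the 9 groups on the x axis, with the group mean as a bar; vertical lines separate the count tables, which were scaled separately. OPRK1 stands at 138 to 166 CPM with the combination and 156 to 262 CPM with enzalutamide, against 0.878 to 1.5 CPM with vehicle, while KCNMA1 stands at 8.79 to 18.3 and 19.1 to 25.9 CPM, against 156 to 158 CPM.

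The combination of enzalutamide and OC2 inhibitor was compared with vehicle to see how the androgen-repressed genes stand when the androgen receptor is blocked and OC2 is inhibited. Of the 6 genes, 5 were called higher, where 23.2% of the 17429 genes tested were called higher, and 1 was called lower, where 23.6% were (46.7% in either direction). In this comparison the 6 had a median log2 fold change of 3.02, beside 0.01 over all genes tested. In RNA from whole cultures, fewer cells that express a gene and less RNA per cell cannot be told apart.

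The receptor gene OPRK1 had 139, 166 and 138 CPM in the combination libraries, against 1.5, 0.878 and 1.20 CPM in the vehicle libraries. The lowest combination library lay far above the highest vehicle library. The log2 fold change was 6.94 (SE 0.28, 123-fold, edgeR adjusted p = 2.12e-07), the steepest of the 6. Both enzymes were also higher. DDC had 498, 401 and 505 CPM with the combination, against 29.9, 30.5 and 29.2 CPM with vehicle. Its groups did not overlap, and the difference was 15.7-fold (log2 3.97, SE 0.11, edgeR adjusted p = 6.18e-08). BCHE had 272, 331 and 272 CPM with the combination, against 65.0, 79.3 and 64.1 CPM with vehicle, 4.20-fold higher (log2 2.07, SE 0.33, edgeR adjusted p = 0.00074). Among the combination libraries, replicate 2 was the highest for OPRK1 and BCHE and the lowest for DDC.

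CCN3, the secreted protein gene, was scarce in these cells. It had 4.48, 8.54 and 5.30 CPM with the combination, from 99, 186 and 117 counts, against 0.146, 0.293 and 0.241 CPM with vehicle, from 3, 6 and 5 counts. The combination libraries all lay above the vehicle libraries, by 26.4-fold (log2 4.72, SE 0.45, edgeR adjusted p = 3.22e-05). This fold rests on the few vehicle counts. In the joint fit CCN3 passed the filter on low counts through the drug arms alone, and it is among the 5 genes called higher in each. CAMK2N1, the CaMKII inhibitor gene, had 1289.8, 1623.5 and 1375 CPM with the combination, against 357, 355 and 341 CPM with vehicle. It was 4.07-fold higher (log2 2.03, SE 0.18, edgeR adjusted p = 1.97e-05), with no overlap.

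KCNMA1, the BK channel gene, went the other way. It had 10.5, 18.3 and 8.79 CPM with the combination, against 158, 156 and 157 CPM with vehicle. Every combination library lay below every vehicle library, and the gene was 12.5-fold lower (log2 −3.65, SE 0.24, edgeR adjusted p = 3.20e-06). Without combination replicate 2, its highest combination library, the log2 fold change was −4.02. All 6 calls of the combination against vehicle remained when any library of the drug table was left out. The 3 endothelial markers summed to 5.84 to 9.51 CPM with the combination, 5.33 to 7.06 CPM with enzalutamide and 17.2 to 19.9 CPM with vehicle. Nearly all of that was VWF, with CDH5 at 0 in both drug arms, and its part in the results was not tested.

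Enzalutamide alone was compared with the same vehicle libraries, so these values are set beside the ones above and share their reference. The same count of genes, 5 higher and 1 lower, was called, where 34.7% and 35.6% of all genes tested were called in those directions (70.3% in all). OPRK1 had 262, 162 and 156 CPM in enzalutamide libraries a, b and c, and was higher than in vehicle by 7.33 on the log2 scale (SE 0.28, edgeR adjusted p = 7.48e-09). DDC had 363, 360 and 329 CPM (log2 fold change 3.55, SE 0.11, edgeR adjusted p = 1.02e-09). CCN3 had 3.82, 2.32 and 1.79 CPM (3.51, SE 0.46, edgeR adjusted p = 6.50e-05). For these 3 genes no enzalutamide library overlapped the vehicle libraries, and library a was the highest in each.

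BCHE had 247, 93.6 and 95.6 CPM in enzalutamide libraries a, b and c, so a single library carried much of its mean. It was called higher than in vehicle (log2 fold change 1.07, SE 0.33, edgeR adjusted p = 0.0138). Without library a the log2 fold change was 0.43 (edgeR adjusted p = 0.00345), and without vehicle replicate 3 the call was lost (1.00, edgeR adjusted p = 0.0514). CAMK2N1 had 715, 421 and 502 CPM with enzalutamide (log2 fold change 0.63, SE 0.17, edgeR adjusted p = 0.0075), and 0.38 without library a. KCNMA1 had 25.9, 19.1 and 19.5 CPM and was lower than in vehicle by −2.87 on the log2 scale (SE 0.23, edgeR adjusted p = 1.58e-06).

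The combination was then set against enzalutamide alone, which asks what the OC2 inhibitor adds. Of the 6 genes, 4 were called higher and 1 lower, where 31.4% and 30.4% of all genes were (61.9% in all). CAMK2N1 was 2.62-fold higher with the combination (log2 1.39, SE 0.17, edgeR adjusted p = 6.79e-05), and its 3 combination libraries lay above its 3 enzalutamide libraries. CCN3 was 2.31-fold higher (log2 1.21, SE 0.32, edgeR adjusted p = 0.00789). DDC was 1.34-fold higher (log2 0.42, SE 0.09, edgeR adjusted p = 0.00291). OPRK1 was not called (log2 −0.39, SE 0.19, edgeR adjusted p = 0.0926): its combination libraries, at 138 to 166 CPM, overlapped the enzalutamide libraries at 156 to 262 CPM. Without library b or without library c it was called lower (−0.50 and −0.52), and without library a its log2 fold change was −0.10 (edgeR adjusted p = 0.357).

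BCHE was 2.01-fold higher with the combination than with enzalutamide (log2 1.00, SE 0.32, edgeR adjusted p = 0.0198), and KCNMA1 was 1.71-fold lower (log2 −0.78, SE 0.23, edgeR adjusted p = 0.0129). Neither call held in every leave-one-out fit. BCHE was not called without library b (0.77), without library c (0.78) or without combination replicate 2 (0.92), with edgeR adjusted p between 0.0586 and 0.0686, and reached 1.64 without library a. KCNMA1 was not called without combination replicate 1 (−0.65) or replicate 3 (−0.56). Every value of this comparison crosses the change in counting step. KRT18, a keratin of luminal cells named here after its values were seen, had 85.3 CPM with enzalutamide, beside 387 CPM with the combination and 507 CPM with vehicle. LRRC26, an auxiliary subunit that shifts BK channel opening to lower voltage, had 19.9 CPM with enzalutamide, beside 237 and 150.5 CPM. The part of the counting step in these values was not tested.

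**Figure D2:**
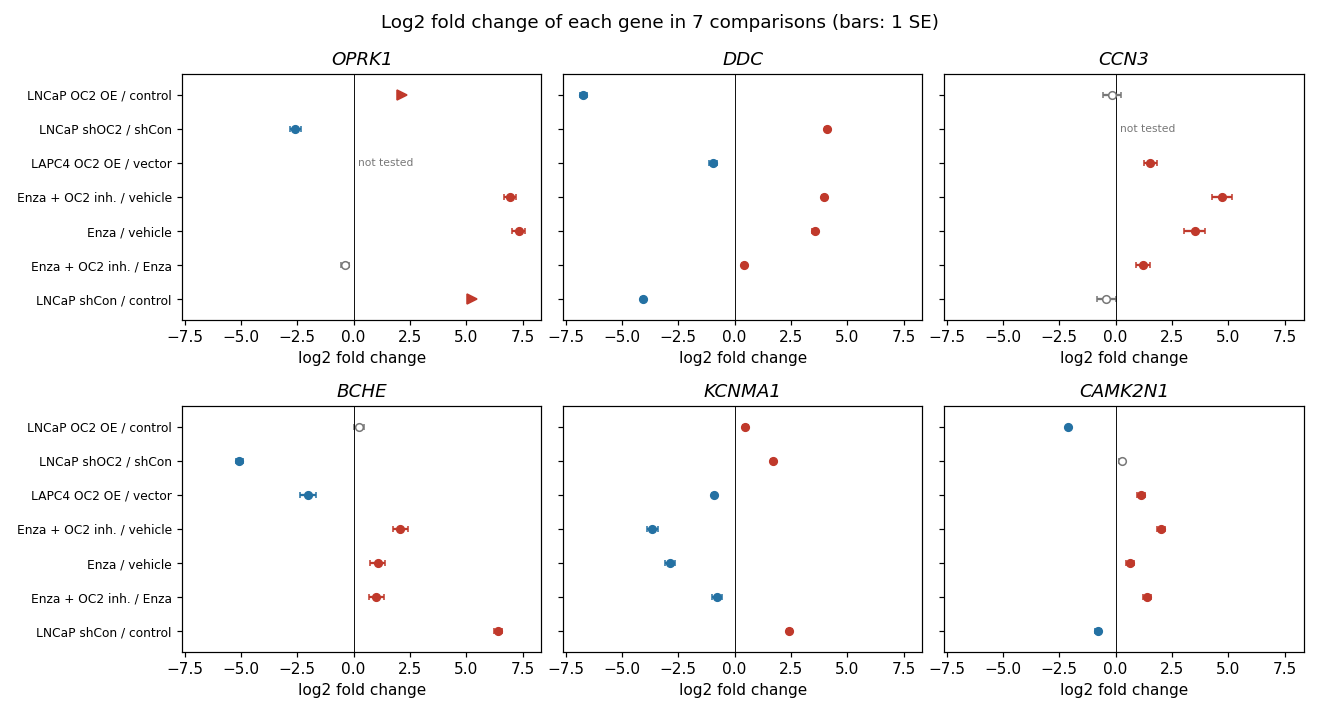
Log2 fold change (x axis) of the 6 genes in 7 comparisons (rows), with bars of 1 SE; red points were called higher, blue points lower and open grey points were not called. Right-pointing triangles mark lower bounds for OPRK1 against control libraries with 0 counts (at least 4.44-fold and at least 37.7-fold). All genes but KCNMA1 lie right of 0 for both drug arms against vehicle, and KCNMA1 lies left at −3.65 and −2.87.

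Lists of related genes give the surroundings of these values. Of 24 androgen-induced genes, 23 were called lower and 0 higher with the combination than with vehicle (median log2 fold change −2.12). These included KLK2, a kallikrein protease (−4.80), KLK3 (−4.61), the metalloprotease-disintegrin family gene ADAM7 (−7.31), the metalloreductase gene STEAP4 (−4.34), FKBP5, an immunophilin gene (−3.05), and the ion channel gene TRPM8 (−2.65). ADAM7 and STEAP4 were near 0 with the combination, at 0.136 and 0.0452 CPM, so the size of their folds is uncertain. MED28 was not called (0.11). With enzalutamide alone 21 were lower and 2 higher (median −2.26). Between the combination and enzalutamide, 6 of the 24 were higher and 9 lower, KLK3 among the lower ones (−2.12; 68.0 CPM with the combination, 297 CPM with enzalutamide and 1658 CPM with vehicle).

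Another 10 genes listed as androgen-repressed were less uniform than the induced list. Of the 9 tested, 7 were higher and 2 lower with the combination than with vehicle (median 1.29). GRB10, an adaptor of growth factor receptors, was at 1129 CPM with the combination and 188 CPM with vehicle (log2 fold change 2.58). The androgen glucuronidating enzyme gene UGT2B17 was higher (2.98), while UGT2B11 (−2.67) and UGT2B28 (−4.22) were lower. UGT2B genes are related in sequence, and counting can split reads between those most alike, so their values are uncertain. The part of this in the directions above was not tested. With enzalutamide alone 6 were higher and 2 lower, and for the combination against enzalutamide 5 were higher and 3 lower.

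Binding partners, auxiliary subunits and relatives of the 6 genes mostly fell under the filter on low counts, and 12 of 29 were tested in the drug table. With the combination, 8 were higher and 1 lower than with vehicle (median 0.55). The BK channel subunit genes KCNMB4 (2.57 CPM with the combination and 0.890 CPM with vehicle, log2 fold change 1.52) and KCNMB3 (0.86) were higher where their pore gene KCNMA1 was lower. OPRL1, the nociceptin receptor gene and a relative of OPRK1, was higher (1.91), as was CCN1, a relative of CCN3 (1.51). The CaMKII subunit gene CAMK2D was not called (0.18, edgeR adjusted p = 0.281). With enzalutamide alone 4 of the 12 were higher and 3 lower. For the combination against enzalutamide 5 were higher and 3 lower, LRRC26 the steepest (3.58).

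**Figure D3:**
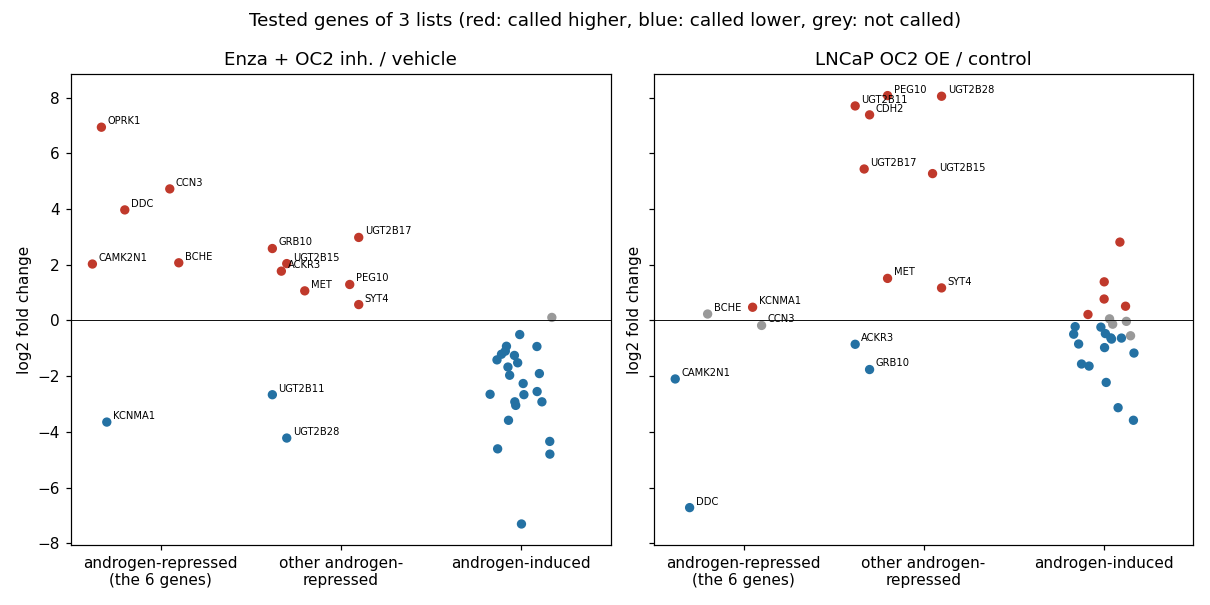
Log2 fold change (y axis) of the tested genes of 3 lists (x axis) for the combination against vehicle (left) and for LNCaP OC2 overexpression against control (right); each point is a gene and its horizontal place within a list has no meaning. OPRK1 is left out on the right, since its control libraries hold 0 counts. On the left 23 of 24 androgen-induced genes are called lower, and on the right 15 of 24.

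With overexpression of OC2 in LNCaP, the 6 genes were called in shares near those of all genes. Against control, 2 were called higher and 2 lower, where 31.6% and 29.3% of the 17046 genes tested were (60.8% in all). The 6 had a median log2 fold change of 0.03, beside 0.02 over all genes, and this median does not change when OPRK1 is set at its bound. DDC had 0.667 and 0.429 CPM in the overexpressing libraries, against 57.8 and 57.2 CPM in the control libraries. It was 105-fold lower (log2 −6.72, SE 0.16, edgeR adjusted p = 2.02e-09). CAMK2N1 had 37.6 and 36.7 CPM with overexpression, against 158 and 156 CPM in control, 4.29-fold lower (log2 −2.10, SE 0.07, edgeR adjusted p = 1.99e-08).

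OPRK1 had 0.667 and 0.572 CPM in overexpressing libraries, from 14 and 12 counts, against 0 counts in both control libraries. With a floor of 3 counts per library this is at least 4.44-fold higher. The call rests on the edgeR fit (adjusted p = 0.000645), which does not test this bound. With 0 counts in control, OPRK1 passed the filter on low counts through the overexpressing libraries alone. KCNMA1 had 21.2 and 21.7 CPM with overexpression, against 15.7 and 14.7 CPM in control (1.39-fold, log2 0.47, SE 0.10, edgeR adjusted p = 0.00199). BCHE had 3.10 and 3.19 CPM with overexpression and 2.33 and 2.93 CPM in control (0.23, SE 0.22, edgeR adjusted p = 0.379). CCN3 had 0.667 CPM in both overexpressing libraries and 0.921 and 0.577 CPM in control (−0.18, SE 0.40, edgeR adjusted p = 0.716). Neither BCHE nor CCN3 was called.

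Which LNCaP control served as the reference set several of these directions. Against shCon, in the same table, 0 of the 6 genes were called higher with overexpression and 5 were called lower, where 33.2% and 30.8% of all genes tested were (64% in all). OPRK1 was then lower by −3.09 on the log2 scale, BCHE by −6.16 and KCNMA1 by −1.95, each reversed in sign, while DDC and CAMK2N1 stayed lower. The neuroendocrine markers summed to 49.1 to 55.0 CPM in the overexpressing libraries and 2.23 to 2.71 CPM in control libraries, nearly all of it SYP (synaptophysin, 51.8 CPM with overexpression), with only 1 of the 4 markers at 1 CPM or more and INSM1 at 0 in control. Their part in the results was not tested.

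Beside these, 15 of the 24 androgen-induced genes were lower and 5 higher with overexpression than in control (median −0.52), TRPM8 (−3.58) and KLK3 (−1.64) among the lower and ADAM7 among the higher (2.81). FKBP5 was not called (−0.13, edgeR adjusted p = 0.129). Of the other androgen-repressed genes, 8 of 10 were higher and 2 lower (median 5.35). PEG10, a gene derived from a retrotransposon, was at 598 CPM with overexpression and 2.19 CPM in control (log2 fold change 8.07), and UGT2B28 (8.05), UGT2B11 (7.70) and CDH2, which encodes N-cadherin (7.38), followed. In control UGT2B28 had 0.279 CPM and CDH2 0.0242 CPM, so the size of these folds is uncertain. Both genes passed the filter on low counts through the overexpressing libraries alone. Of 13 tested partners and relatives, 9 were higher and 3 lower. ACHE, the acetylcholinesterase gene and a relative of BCHE, was at 25.2 CPM with overexpression and 2.76 CPM in control (3.17), and MAOA, whose enzyme breaks down the amines made through DDC (−1.62), and LRRC26 (−1.58) were lower.

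The hairpin against OC2 was compared with shCon. Of the 5 genes tested, 2 were called higher and 2 lower, where 27.3% and 26.8% of the 16585 genes tested were (54.1% in all). BCHE had 5.66 and 7.47 CPM in the shOC2 libraries, against 249 and 197 CPM in the shCon libraries. It was 33.6-fold lower (log2 −5.07, SE 0.15, edgeR adjusted p = 8.97e-09), far outside the spread of either group. The control libraries of the same table averaged 2.63 CPM for BCHE, nearer to shOC2 than to shCon. OPRK1 had 0.966 and 0.765 CPM with shOC2, against 5.89 and 4.61 CPM with shCon, 6.0-fold lower (log2 −2.59, SE 0.25, edgeR adjusted p = 2.03e-05). In control it had 0 counts.

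DDC was higher in shOC2 libraries, at 55.4 and 61.4 CPM, against 3.30 and 3.53 CPM in shCon libraries. The control libraries averaged 57.5 CPM for DDC, near shOC2, and 15.2 CPM for KCNMA1, below both hairpin groups. The part of the shCon cells in these differences was not tested. DDC is compared with shCon here. It was 17.2-fold higher (log2 4.11, SE 0.10, edgeR adjusted p = 3.40e-09). KCNMA1 had 278 and 248 CPM with shOC2, against 74.6 and 89.7 CPM with shCon, 3.22-fold higher (log2 1.69, SE 0.08, edgeR adjusted p = 3.00e-07). CAMK2N1 overlapped between groups, at 104 and 116.2 CPM with shOC2 and 104 and 78.8 CPM with shCon, and was not called (log2 0.27, SE 0.11, edgeR adjusted p = 0.0656). It was called without shCon replicate 1 (0.49, edgeR adjusted p = 0.000279). CCN3 had 3 counts in each shOC2 library and 17 and 10 counts in the shCon libraries, a ratio of 0.244 (exact 95% interval 0.0825 to 0.604, counting error only). It fell under the filter on low counts; with no filter its edgeR adjusted p was 0.0492.

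With the same hairpin 18 of the 24 androgen-induced genes were higher and 4 lower than in shCon (median 0.81). STEAP4 was at 28.5 CPM with shOC2 and 0.517 CPM with shCon (log2 fold change 5.78), TRPM8 was higher by 2.13, FKBP5 by 0.66, KLK2 by 0.86 and KLK3 by 0.66. The control libraries averaged 3161 CPM for KLK3, 529 CPM for KLK2 and 432 CPM for FKBP5. These were nearer to shOC2 (2868, 578 and 415 CPM) than to shCon (1834, 320 and 264 CPM). For TRPM8 (51.5 CPM) and STEAP4 (1.48 CPM) control was nearer to shCon. The part of the shCon cells was not tested. The other androgen-repressed genes were evenly divided, with 4 of 9 higher and 4 lower (median 0.42). SYT4, a synaptotagmin gene, was higher (4.69), and ACKR3, an atypical chemokine receptor gene (−3.76), PEG10 (−3.34) and UGT2B17 (−3.27) were lower. Control averaged 2.19 CPM for PEG10 and 0.77 CPM for UGT2B17, nearer to shOC2 (3.77 and 4.18 CPM) than to shCon (38.5 and 40.8 CPM). For SYT4 (49.0 CPM) and ACKR3 (66.7 CPM) control lay between shOC2 and shCon. Of 12 tested partners and relatives, 5 were higher and 3 lower, KCNMB4 the steepest (−3.43). ACHE was higher (1.77) where BCHE was lower. The fibroblast markers summed to 19.6 to 25.5 CPM with shOC2 and 29.6 to 35.2 CPM with shCon, mostly COL1A1, and the endothelial markers to 2.34 to 2.90 CPM and 7.42 to 9.02 CPM, with CDH5 and PECAM1 at 0. Their part in the results was not tested.

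The LNCaP cells used as references differed from each other in the levels of these genes. In shCon, 3 of the 6 genes were called higher and 2 lower than in control, where 28.3% and 28.1% of the 16790 genes tested were (56.4% in all). BCHE averaged 223 ± 36.4 CPM in shCon and 2.63 ± 0.426 CPM in control (SD, n = 2 each), 84.1-fold higher (log2 6.39, SE 0.17, edgeR adjusted p = 1.74e-08). OPRK1 had 143 and 111 counts in shCon and 0 in control, at least 37.7-fold higher with the same floor. It passed the filter on low counts through the shCon libraries alone, and is among the 3 genes called higher. KCNMA1 averaged 82.2 ± 10.6 CPM in shCon and 15.2 ± 0.652 CPM in control (log2 fold change 2.43). DDC averaged 3.42 ± 0.167 CPM in shCon and 57.5 ± 0.432 CPM in control, 16.8-fold lower (log2 −4.07, SE 0.10, edgeR adjusted p = 1.18e-08).

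CAMK2N1 averaged 91.6 ± 18.1 CPM in shCon and 157 ± 0.827 CPM in control (log2 fold change −0.78, edgeR adjusted p = 0.000538), and the call was lost without control replicate 1 or 2. CCN3 was not called (−0.41, edgeR adjusted p = 0.44). The vehicle cells of the drug table, scaled separately and therefore given without a test, averaged 69.5 CPM for BCHE, 29.9 CPM for DDC, 1.20 CPM for OPRK1, 157 CPM for KCNMA1, 351 CPM for CAMK2N1 and 0.226 CPM for CCN3. In 24 androgen-induced genes, 7 were higher and 12 lower in shCon than in control, KLK3 (−0.79) and KLK2 (−0.73) among the lower. The other androgen-repressed genes split 6 higher to 3 lower, UGT2B17 (5.72) and PEG10 (4.14) among the higher. Of 11 tested partners and relatives, 2 were higher and 6 lower. Fibroblast markers summed to 29.6 to 35.2 CPM in shCon and 14.2 to 14.9 CPM in control, with DCN and LUM at 0 in both. Endothelial markers summed to 7.42 to 9.02 CPM in shCon and 4.0 to 4.61 CPM in control, with CDH5 and PECAM1 at 0 in both and VWF higher in shCon (log2 fold change 0.93). Their part in the results was not tested. The labels do not say how the control and shCon cells were made, and hairpin vector, culture and library preparation cannot be told apart in this difference.

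In LAPC4, all 5 tested genes differed with OC2 overexpression. Of these, 2 were called higher and 3 lower than in vector, where 32.1% and 29% of the 16904 genes tested were (61.1% in all). CCN3 had 31.4, 34.6 and 31.1 CPM with overexpression, against 15.4, 12.4 and 5.24 CPM in vector, 2.91-fold higher (log2 1.54, SE 0.29, edgeR adjusted p = 0.00121). CAMK2N1 had 6.6, 6.15 and 6.01 CPM with overexpression, against 2.06, 2.91 and 3.58 CPM in vector, 2.18-fold higher (log2 1.13, SE 0.18, edgeR adjusted p = 0.000481). None of the overexpressing libraries overlapped the vector libraries in either gene.

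BCHE had 4.72, 4.03 and 3.67 CPM with overexpression in LAPC4, against 8.93, 14.6 and 27.1 CPM in vector, 4.07-fold lower (log2 −2.03, SE 0.34, edgeR adjusted p = 0.000623). KCNMA1 had 40.6, 39.7 and 42.0 CPM, against 64.3, 74.1 and 91.1 CPM, 1.88-fold lower (log2 −0.91, SE 0.11, edgeR adjusted p = 6.28e-05). DDC had 1.52, 1.95 and 1.54 CPM, against 2.71, 3.18 and 3.72 CPM, 1.93-fold lower (log2 −0.95, SE 0.19, edgeR adjusted p = 0.00158). Vector replicate 3 was the highest vector library for BCHE, KCNMA1, DDC and CAMK2N1 and the lowest for CCN3. Without it the calls remained, with log2 fold changes of −1.52 for BCHE and 1.20 for CCN3. OPRK1 was nearly absent, at 7, 2 and 3 counts with overexpression and 2, 1 and 0 counts in vector (ratio 3.90, exact 95% interval 1.05 to 21.5, counting error only), and was not tested.

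The fibroblast markers summed to 17.0 to 19.4 CPM in overexpressing LAPC4 libraries and 3.51 to 5.61 CPM in vector libraries, with 3 of 5 markers at 1 CPM or more against 1 of 5 and none of the 5 at 0 counts, and COL1A2 alone at 8.77 against 0.0454 CPM. Their part in the results was not tested. Of the androgen-induced genes 10 of 24 were lower and 4 higher (median −0.13), KLK3 (−2.64) and KLK2 (−2.62) the steepest, then ADAM7 (−1.21) and SLC45A3 (−1.10). FKBP5 was lower too (−0.96), and TRPM8 was not called (−0.45, edgeR adjusted p = 0.0627). Of 9 tested other androgen-repressed genes 2 were higher and 5 lower, with MET, a receptor tyrosine kinase gene, at 95.6 CPM with overexpression and 0.332 CPM in vector (8.14). Of 12 tested partners and relatives 6 were higher and 2 lower, with the CCN3 relatives CCN2 (5.25) and CCN1 (3.12) the steepest.

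The response to OC2 overexpression was then compared between the lines with an interaction contrast, the LAPC4 log2 fold change minus the LNCaP one. It was called for 4 of the 6 genes, 2 higher and 2 lower, where 25.4% and 24.1% of 19633 genes were (49.5% in all). DDC differed by 5.77 (SE 0.28, edgeR adjusted p = 2.19e-09), being lower in both lines but far more so in LNCaP. CAMK2N1 differed by 3.23 (SE 0.18, edgeR adjusted p = 9.69e-09), higher in LAPC4 and lower in LNCaP. KCNMA1 differed by −1.39 (SE 0.17, edgeR adjusted p = 1.67e-05), lower in LAPC4 and higher in LNCaP. BCHE differed by −2.26 (SE 0.56, edgeR adjusted p = 0.00441), lower in LAPC4 and not called in LNCaP. CCN3 (1.72, SE 0.83, edgeR adjusted p = 0.105) and OPRK1 (edgeR adjusted p = 0.0598, with a group at 0 counts) were not called. CCN3 was called without LAPC4 vector replicate 1 (2.03) or replicate 3 (1.39), and OPRK1 without LAPC4 vector replicate 3 or overexpression replicate 1. These values rest on the LNCaP control libraries. With shCon in their place, a choice made after seeing the data, 5 of the 6 genes were called higher and 0 lower, where 22.9% and 26.4% of all genes tested were (49.3% in all). BCHE (4.07, SE 0.53, edgeR adjusted p = 2.93e-05), KCNMA1 (0.98, SE 0.18, edgeR adjusted p = 0.000474) and OPRK1 (4.85, SE 0.87, edgeR adjusted p = 0.000422) then had the opposite sign, and DDC differed by 1.64 and CAMK2N1 by 2.38. Too scarce to test in LAPC4 alone, OPRK1 passed the filter on low counts through LNCaP libraries with either reference. The lines differ in medium, in added R1881 and in whole against estimated counts as well, which cannot be told apart from the line. ONECUT2 itself was 57.7-fold higher with overexpression in LAPC4 and 11.4-fold higher in LNCaP. The size of that rise cannot be told apart from the line either.

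Across the 9 groups, the levels of each gene had their own order. Within the drug table DDC, CCN3, BCHE and CAMK2N1 ran from combination to enzalutamide to vehicle, each step called. OPRK1 was high in both drug arms, which were not called different, and low in vehicle. KCNMA1 ran in the reverse order. Within the LNCaP table, DDC was high in shOC2 and control, low in shCon and lowest with overexpression. BCHE was high in shCon alone, and OPRK1 was highest there. KCNMA1 was highest in shOC2 and lowest in control.

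Likeness was measured as Pearson's r of log2 levels (CPM plus 0.1) over the 9 group means, among 12147 genes reaching 1 CPM in each table. The means were first centred within each count table, so r compares differences within tables and not levels between them. It is a description only, since groups of a table share their scaling and their cell stock. The genes named are the highest of 12147, and r over so few means can be high through that selection. The enzalutamide mean also carries its own counting step. The genes most like DDC were MTM1 (r = 0.972), TANC2 (0.968) and WFS1 (0.962). For BCHE they were ZNF302 (0.972), MPIG6B (0.965) and ZKSCAN4 (0.9405), for KCNMA1 RABGGTB (0.987), PPP4R2 (0.985) and ZNF587B (0.981), and for CAMK2N1 MAP3K3 (0.977), EID2B (0.943) and MGMT (0.94). OPRK1 and CCN3 did not reach 1 CPM in each table. None of the 4 genes measured was among the nearest genes of another.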

How the data were processed

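RNA sequencing was analysed from 23 libraries in 9 groups, grouped by the sample labels. FastQC 0.9.0, Bowtie2 and the build hg38 are named per the submitters' processing notes, with no role stated. The sources used here give no counter, annotation or filter. The authors deposited whole-number counts per gene for LAPC4 and for the enzalutamide columns, and estimated counts for the LNCaP table and for the vehicle and combination columns, which were rounded here. Current symbols were found for 99.5%, 98.7% and 65.4% of the rows of the LNCaP, LAPC4 and drug tables; NOV in the drug table is CCN3. Rows sharing a symbol in the drug table, or an identifier in the LAPC4 table, were summed. A symbol with several identifiers in the LNCaP or LAPC4 table took the one with most counts.

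Comparisons were tested with edgeR 4.0.16 in R 4.3.3 (TMM, filterByExpr, glmQLFit, glmQLFTest, Benjamini-Hochberg over all genes tested, threshold 0.05), fitted on the groups compared; the 3 drug arms were fitted together. SE is the absolute log2 fold change over the square root of F. The interaction used both overexpression experiments in a joint fit. A fold against 0 counts uses a floor of 3 counts per library; ratios of few counts carry exact 95% (Clopper-Pearson) intervals. Intervals and floors cover counting error only. Library totals were 20964025 to 23272088 (LNCaP), 28586064 to 30465978 (LAPC4) and 22615580 to 28241076 (drug).

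The 6 genes, the lists and the tests were chosen with earlier results of these data known. All 6 were named in every comparison, with ONECUT2; from each list up to 4 called genes of largest change and 2 uncalled ones of highest level could be named, and KLK3, KLK2, FKBP5 and TRPM8 anywhere. Alternatives were DESeq2 1.42.0, RLE scaling, no filter, other sets of groups in the fit, shCon as reference, a replicate block and leaving out each library; shCon as the LNCaP reference of the interaction was added after seeing the data. The procedure was tested on simulated data. Replicate numbers did not pair the samples.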

Additional observations from a re-analysis of the deposited data

Results flagged for a closer look

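The response to OC2 overexpression differed between LAPC4 and LNCaP in 4 of the 6 genes by the interaction test itself. Line, medium, R1881, kind of counts and size of the ONECUT2 rise cannot be told apart in this contrast. The difference of log2 fold changes, LAPC4 minus LNCaP, was 5.77 for DDC, −2.26 for BCHE, −1.39 for KCNMA1 and 3.23 for CAMK2N1, and each was called by edgeR after Benjamini-Hochberg adjustment, as were 49.5% of all genes in that test. These 4 calls were made in all 10 fits that left out a library, where the differences ran between 5.5 and 6.14 for DDC, −2.57 and −1.73 for BCHE, −1.50 and −1.24 for KCNMA1, and 3.04 and 3.43 for CAMK2N1. They depended on the LNCaP reference. With shCon in place of control, chosen after seeing the data, BCHE (4.07) and KCNMA1 (0.98) were called with the opposite sign, and DDC (1.64) and CAMK2N1 (2.38) stayed above 0.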

How the results depend on the processing

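Values of the 6 genes were recomputed under DESeq2, RLE scaling, no filter, other sets of groups in the fit, shCon as reference, a replicate block and leave-one-out fits: 512 kept their direction and their side of the threshold, 9 gained a call, 8 lost one and 8 changed sign. Of the sign changes, 4 came in LNCaP overexpression with shCon in place of control. They were OPRK1 (−3.09), BCHE (−6.16), KCNMA1 (−1.95) and the uncalled CCN3 (0.24). In that comparison 0 of the 6 genes were higher and 5 lower, where 33.2% and 30.8% of all genes tested were. The same replacement in the LAPC4 minus LNCaP difference, chosen after seeing the data, gave 5 higher (22.9% of all genes) and 0 lower (26.4%). OPRK1 (4.85), BCHE (4.07) and KCNMA1 (0.98) changed sign there. The cause was not tested. CCN3 in LNCaP overexpression, uncalled throughout, ran between −0.48 and 0.18 in leave-one-out fits, positive without control replicate 1. Leaving out a library moved the genes called for shOC2 against shCon to between 5076 and 7863 (8969 with all libraries), with the lowest counts without shOC2 replicate 1 (5076) or 2 (5524), where a lone library is assumed to vary like the other group. It moved the members called higher in LNCaP overexpression to between 1 and 2, since OPRK1 was not tested without either overexpression replicate. Members called lower ran between 0 and 2 for the combination against enzalutamide and between 1 and 2 for shCon against control. CCN3 gained a call in the LAPC4 minus LNCaP difference under DESeq2 (1.71). Same-numbered libraries deviated together with correlations between −0.10 and 0.11, so the numbers do not pair the samples. With a replicate block, 11256 genes were called for LNCaP overexpression, 8521 for shOC2, 9808 for LAPC4, 9379 for the combination against vehicle, 9172 for shCon against control and 9428 for the difference between lines. The block changed no call of the 6 genes except CCN3 in that difference (1.81, edgeR adjusted p = 0.0496). The enzalutamide columns carry no numbers, so no block was fitted for them. At these depths CCN3 in LNCaP and OPRK1 in LAPC4 were too scarce for small differences to be detected.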
